A study of Mus musculus with 8 samples.

Results

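Synaptic vesicles release transmitter when SNARE proteins on the vesicle (the VAMP or synaptobrevin family) and on the plasma membrane (syntaxins and the SNAP-25 family) zip into one complex. Synaptotagmins sense the calcium that triggers fusion, complexins hold and activate the complex, Munc18 (Stxbp) proteins guide syntaxin, and NSF with its SNAP adaptors takes spent complexes apart. Neurons use dedicated paralogs of this machinery, while other cells, hepatocytes included, run constitutive and endosomal traffic on widely expressed ones. Gene expression of 47 such genes was read from single-colour Illumina bead arrays of hypothalamus and liver. The genes were chosen by symbol, and every probe that the platform annotation assigns to one of these symbols was taken: 44 of the 47 genes had a probe, 67 probes of 25697 in all. Sv2c, Unc13a and Sncb had none among the probes analysed here.

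All samples came from male mice carrying a knockout of Fmod, the gene of the collagen-binding proteoglycan fibromodulin, on a C57BL/6 background and at 13 weeks of age. There were 4 hypothalamus arrays and 4 liver arrays of total RNA. The design text names 4 knockout mice. Every sample carries the deletion, and no wild-type sample was analysed here, so the contrast is between tissues and not between genotypes. Nothing in the labels says how the replicate numbers relate to animals, so a p-value here reflects array-to-array spread, which may be technical.

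The number of detected probes ran from 13285 to 13753 on hypothalamus arrays and from 10307 to 10828 on liver arrays (detection p-value under 0.05). Neuron markers were higher in hypothalamus in 11 of 11 tested of the 14 named, and the log2 of their summed intensity was 16.08 to 16.20 in hypothalamus against 8.63 to 9.01 in liver, where 9 of the 14, among them Stmn2, Gap43 and Slc17a6, were detected on no array. Nefl and Gad2 were detected on no hypothalamus array either. Of the 11 tested neuron markers 7 were detected on no liver array, so they could be tested through hypothalamus alone and had to differ. Their count supports nothing by itself, and 43.1% of all tested genes were higher in hypothalamus. Of the hepatocyte markers, Alb, Cyp2e1, Tat, Ahsg and Fga were detected on no hypothalamus array, and without Ttr the log2 sum of the list was 8.04 to 8.21 in hypothalamus and 16.81 to 16.89 in liver. Ttr, which choroid plexus also makes, had a log2 level of 14.32 on hypothalamus replicate 3, against 5.42 to 7.88 on the other hypothalamus arrays and 14.40 to 14.54 on liver arrays. Without that array, and with the same probes tested, the counts of vesicle genes called in each direction were as with it. Of the 36 tested vesicle genes, 17 were detected on no liver array and had to differ, so these counts support nothing by themselves. With the probes to test chosen again without that array, 19 vesicle genes could be tested. In bulk RNA, fewer cells of a type and less RNA per cell cannot be told apart.

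Promoter sequence is shown first for the genes on which the later comparisons turn. RefSeq windows of 300 bases (250 before and 50 after each annotated start, GRCm38.p6) were given for 38 of the 47 genes, 50 windows in all. They were searched on both strands for RE1, the element bound by the repressor REST, as TTCAGCACC, any 2 bases, then GGACAG, with at most 2 mismatches over the 15 fixed letters. The cyclic AMP response element was searched as TGACGTCA and the GC box as GGGCGG. RE1 was matched in 2 of the 50 windows, those of Syn1 and Rph3a, both neuronal, and in 0.143% of all 32851 windows. None of the searched motifs contains another. With 3 mismatches allowed there were 4 windows, all of neuronal genes, against 1.17% of all windows. Since 36 of the 50 windows belong to neuronal genes, these few matches do not separate neuronal from widely expressed genes. The response element was present in 3 of the 50 windows (Syn1, Napa and Stxbp3) and in 1.79% of all windows, and the GC box in 30 of the 50 and in 35.7% of all windows. The median number of CpG in a window was 16.5 for neuronal genes and 23 for widely expressed ones, against 7 for all windows. A match is a description of the letters and not of a bound site.

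The Syn1 and Rph3a windows are shown because they hold the RE1 matches, with 1 and 2 mismatches, at bases 19 to 35 (Syn1) and 159 to 175 (Rph3a, on the opposite strand). Syngr2 and Vamp4 are shown because they are the widely expressed genes of the paralog pairs that differed most and least between the tissues. Capitals mark RE1, the response element and the GC box in either strand. Vamp4 has a second window just upstream that holds none of the motifs. The windows lie at chrX:20920869-20921168, minus strand, at chr5:121009489-121009788, minus strand, at chr11:117809417-117809716, plus strand and at chr1:162570578-162570877, plus strand.
Syn1: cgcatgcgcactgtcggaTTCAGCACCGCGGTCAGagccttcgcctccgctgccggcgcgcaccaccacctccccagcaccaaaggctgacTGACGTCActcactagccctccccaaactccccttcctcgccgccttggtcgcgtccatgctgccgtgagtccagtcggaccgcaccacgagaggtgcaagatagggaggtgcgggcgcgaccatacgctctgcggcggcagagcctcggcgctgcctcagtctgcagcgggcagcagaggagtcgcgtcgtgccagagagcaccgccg
Rph3a: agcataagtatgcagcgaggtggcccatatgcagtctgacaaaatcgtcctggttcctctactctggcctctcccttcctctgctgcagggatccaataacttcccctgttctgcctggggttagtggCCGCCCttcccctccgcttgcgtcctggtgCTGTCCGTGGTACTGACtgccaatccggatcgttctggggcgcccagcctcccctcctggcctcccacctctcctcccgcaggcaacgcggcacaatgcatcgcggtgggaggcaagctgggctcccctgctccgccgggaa
Syngr2: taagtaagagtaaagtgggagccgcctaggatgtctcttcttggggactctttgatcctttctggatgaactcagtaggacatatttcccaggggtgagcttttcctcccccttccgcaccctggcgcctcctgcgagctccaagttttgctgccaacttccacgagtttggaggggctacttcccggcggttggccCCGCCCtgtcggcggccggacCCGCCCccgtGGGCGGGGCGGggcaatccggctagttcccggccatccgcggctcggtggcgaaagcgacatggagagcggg
Vamp4: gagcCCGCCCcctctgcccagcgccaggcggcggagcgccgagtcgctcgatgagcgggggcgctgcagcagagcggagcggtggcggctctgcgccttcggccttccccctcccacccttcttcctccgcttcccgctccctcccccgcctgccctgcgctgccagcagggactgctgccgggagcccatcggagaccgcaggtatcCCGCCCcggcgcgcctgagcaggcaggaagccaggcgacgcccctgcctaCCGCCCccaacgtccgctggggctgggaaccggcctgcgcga

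Hypothalamus was then compared with liver, each gene being represented by the probe with the highest mean over the 8 arrays. Values are normalized log2 intensities, and a difference is hypothalamus minus liver from limma, adjusted over all 13498 tested probes. A probe was tested if it was detected on at least 4 of the 8 arrays, and 36 of the 44 genes had such a probe. Of these 36, 28 were higher in hypothalamus, 5 had their higher level in liver and 3 were not called. Of all 9456 tested genes 80.4% were called, 43.1% with the higher level in hypothalamus and 37.3% with it in liver. By probes, 39 of the 54 tested were higher in hypothalamus and 9 in liver, where 79.6% of all tested probes were called (41.8% and 37.8% by direction). In all, 17 of the 36 were detected on no liver array, so they passed the filter through hypothalamus alone and had to differ; their count supports nothing by itself. A difference beyond 2-fold was called for 26 genes in favour of hypothalamus and 4 in favour of liver, against 42.6% of all tested genes (23.6% and 18.9% by direction). For probes these were 34 and 7, against 41.5% of all tested probes (22.1% and 19.4%). The median log2 difference of the 36 was 4.49, and 3.75 with genes undetected in liver set at the lowest detectable level, against 0.11 for all tested genes. Keeping only probes detected on all 8 arrays removes the genes that passed through hypothalamus only. With these, 16 genes were tested and their median was 0.31, against −0.24 for all such probes. Of the 16 genes, 8 were then higher in hypothalamus and 6 in liver. Of all 7992 such probes 80.7% were called, and 41.4% of the called ones were higher in hypothalamus.

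**Figure D1:**
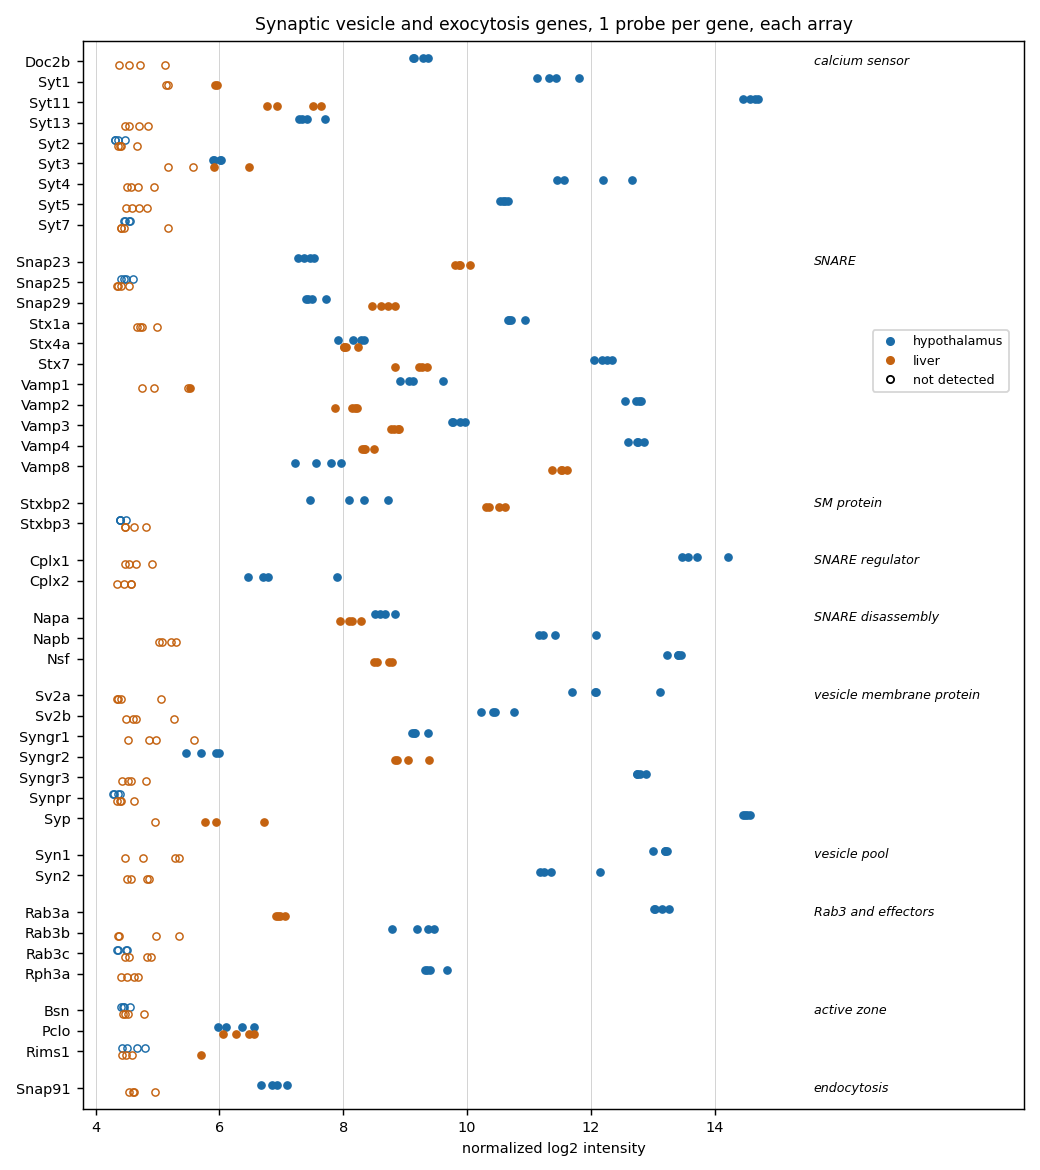
Normalized log2 intensity (horizontal axis) of 44 synaptic vesicle and exocytosis genes, by role, on each of the 4 hypothalamus and 4 liver arrays; open circles mark arrays on which the probe was not detected. Most neuronal genes sit near the floor in liver, while Snap25, Synpr, Syt2, Syt7, Rab3c, Bsn and Stxbp3 sit there in both tissues.

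Split by where the genes are known to act, 20 of 22 tested neuronal genes were higher in hypothalamus, 0 were higher in liver and 2 (Syt3 and Pclo) were not called. All 4 tested genes of mixed use (Syt11, Syt13, Doc2b and Nsf) were higher in hypothalamus. The 10 tested widely expressed genes went both ways: 4 were higher in hypothalamus, 5 in liver and 1 (Stx4a) was not called. Median log2 differences were 5.91 for neuronal, 4.64 for mixed and −0.52 for widely expressed genes, and 5.09, 4.19 and −0.52 with genes undetected in liver at the lowest detectable level. With probes detected on all 8 arrays alone the neuronal median was 2.26. It rests on Vamp1 (−0.73, by a probe near background), Pclo (−0.09), Vamp2 (4.61) and Rab3a (6.14) only, and none of these lies near it. All 10 widely expressed genes were detected on all 8 arrays. By contrast, 15 of the 22 neuronal and 2 of the 4 mixed genes (Syt13 and Doc2b) were detected on no liver array. Those passed the filter through hypothalamus alone and had to differ, so the neuronal and mixed counts support nothing by themselves. Over all tested genes, the called shares were 43.1% toward hypothalamus and 37.3% toward liver. The median of the widely expressed genes turned above 0 under median scaling (0.18), in the values normalized by the authors (0.17) and with each tissue normalized apart (0.60), where the medians of all tested probes were 0.49, 0.39 and 0.91.

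**Figure D2:**
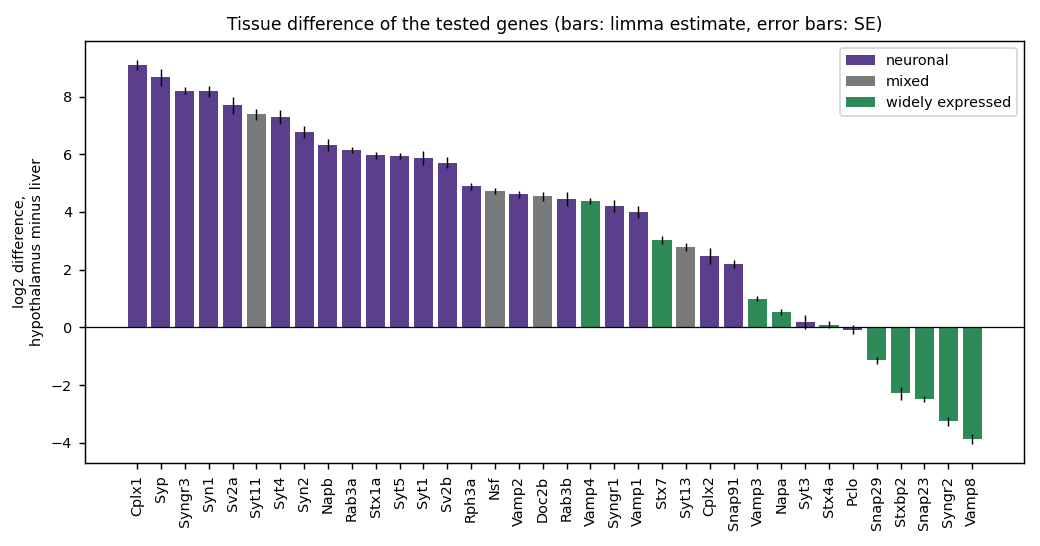
Log2 difference, hypothalamus minus liver, of the 36 tested genes (bars, limma estimate; error bars, SE), coloured by where each gene is known to act. The bars run from 9.10 for Cplx1 to −3.87 for Vamp8, and all 5 genes called higher in liver are widely expressed ones.

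Among the calcium sensors, Syt11, a synaptotagmin that does not bind calcium, had the largest difference among the vesicle genes detected on all 8 arrays. Its log2 levels were 14.70, 14.46, 14.64 and 14.56 in hypothalamus against 7.64, 6.93, 6.76 and 7.51 in liver, where replicates 1 and 4 lay above replicates 2 and 3 (167-fold, log2 difference 7.38, SE 0.20, adjusted p = 2.58e-10). The groups lie far apart, although Syt11 also had the widest spread of these genes among liver arrays (SD 0.43). These values are from its brightest probe, and the other 2 Syt11 probes, detected on no liver array, differed by 4.38 and 3.11 on the log2 scale. Syt1, the sensor of fast synchronous release, had log2 levels of 11.80, 11.13, 11.43 and 11.32 in hypothalamus against 5.17, 5.96, 5.93 and 5.14 in liver. Only 2 of the 4 liver arrays detected it, so that it was at least 50.5-fold higher in hypothalamus (log2 difference 5.87, adjusted p = 4.55e-09).

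Syt4 and Syt5, synaptotagmins of dense core vesicles, were read throughout hypothalamus and never in liver. Syt4 had log2 levels of 12.66, 12.19, 11.57 and 11.45 in hypothalamus against 4.68, 4.57, 4.50 and 4.95 in liver and was at least 83.6-fold higher. Replicates 1 and 2 of hypothalamus stood above replicates 3 and 4, all far above liver. Syt5 was even across the hypothalamus arrays, with log2 levels of 10.62, 10.59, 10.53 and 10.66 there against 4.70, 4.49, 4.83 and 4.59 in liver, and at least 32.3-fold higher. Syt13, another synaptotagmin without calcium binding, was at least 3.60-fold higher, and Doc2b, a soluble C2-domain sensor, at least 12.5-fold. By its other probe Doc2b was at least 3.03-fold higher.

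Syt3, a plasma membrane synaptotagmin with high calcium affinity, was not called. Its log2 levels were 5.90, 6.01, 6.03 and 5.92 in hypothalamus against 5.92, 5.18, 6.48 and 5.57 in liver, so the groups overlap and the liver arrays are the more scattered (log2 difference 0.18, SE 0.24, adjusted p = 0.506). It was called higher in hypothalamus under median scaling (log2 difference 0.76, adjusted p = 0.00245), in the values normalized by the authors (0.43, adjusted p = 4.04e-04) and with each tissue normalized apart (1.20, adjusted p = 5.97e-05). Syt2, the fast sensor of hindbrain and motor synapses, and Syt7, a high-affinity sensor with 3 probes, were detected on no array of either tissue.

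Among the SNAREs, relatives differed in direction. Vamp2, the main vesicle SNARE of neurons, had log2 levels of 12.55, 12.73, 12.82 and 12.78 in hypothalamus against 8.13, 8.20, 8.22 and 7.87 in liver (24.5-fold, log2 difference 4.61, SE 0.12, adjusted p = 1.82e-10). Vamp8, the endobrevin of late endosomes and secretory granules, ran the other way, with 7.22, 7.80, 7.96 and 7.56 in hypothalamus against 11.61, 11.52, 11.53 and 11.37 in liver (14.7-fold higher in liver, log2 difference −3.87, SE 0.16, adjusted p = 6.23e-09). In neither gene do the groups overlap. A further Vamp8 probe, detected on 3 hypothalamus arrays, differed by −3.34 (hypothalamus minus liver) on the log2 scale.

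Vamp4, a SNARE of the trans-Golgi network counted among the widely expressed genes, differed between the tissues about as much as Vamp2. Its log2 levels were 12.75, 12.76, 12.60 and 12.86 in hypothalamus against 8.36, 8.34, 8.50 and 8.30 in liver (20.6-fold, log2 difference 4.37, SE 0.10, adjusted p = 8.83e-11). Stx7, a syntaxin of late endosomes, was likewise higher in hypothalamus, with 12.34, 12.26, 12.06 and 12.18 against 9.28, 9.23, 9.36 and 8.84 in liver (8.18-fold, log2 difference 3.03, SE 0.13, adjusted p = 1.14e-08). For Vamp3, the cellubrevin of recycling endosomes, the log2 levels were 9.77, 9.97, 9.89 and 9.75 in hypothalamus against 8.90, 8.78, 8.82 and 8.89 in liver, without overlap (log2 difference 0.999, SE 0.10, adjusted p = 5.59e-06). This difference was 1.51 under median scaling, 1.35 in the values normalized by the authors and 1.93 with each tissue normalized apart. The second Vamp3 probe was not called (log2 difference 0.19, adjusted p = 0.267).

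On the plasma membrane side, Stx1a, the neuronal syntaxin, had log2 levels of 10.66, 10.70, 10.94 and 10.68 in hypothalamus and was detected on no liver array (4.67, 4.998, 4.75 and 4.72), at least 35.8-fold higher (adjusted p = 2.63e-11). Stx4a, the plasma membrane syntaxin of most cells, had 7.91, 8.16, 8.29 and 8.33 in hypothalamus against 8.24, 8.01, 8.05 and 8.01 in liver. These overlap, and the difference was not called (log2 difference 0.09, SE 0.12, adjusted p = 0.493). Under median scaling it was 0.82 (adjusted p = 8.35e-05), in the values normalized by the authors 0.61 (adjusted p = 2.41e-05) and with each tissue normalized apart 1.24 (adjusted p = 3.09e-06), each called higher in hypothalamus.

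Snap25, the SNARE that gives the family its name and a partner of Stx1a and Vamp2 in the neuronal complex, could not be compared. Its single probe gave deposited signals of 129.5 to 146.4 on hypothalamus arrays and 129.3 to 139.4 on liver arrays, with detection p-values of 0.243 to 0.945 over the 8 arrays. It thus sat at background in tissue where probes of both partners were detected on all arrays. What the probe can bind was not tested. Snap23, its counterpart in most cells, had log2 levels of 7.36, 7.46, 7.53 and 7.27 in hypothalamus against 9.87, 9.80, 9.88 and 10.04 in liver (5.63-fold higher in liver, log2 difference −2.49, SE 0.11, adjusted p = 7.84e-09). Another Snap23 probe was detected on no array. Snap29, a SNARE of endosomes and autophagosomes, had 7.40, 7.50, 7.43 and 7.72 against 8.61, 8.72, 8.46 and 8.83 in liver (2.21-fold higher in liver, log2 difference −1.14, SE 0.12, adjusted p = 1.03e-05), a call lost with each tissue normalized apart (log2 difference −0.042, adjusted p = 0.761). Neither gene's groups overlap.

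Vamp1, the synaptobrevin of motor and hindbrain terminals, was read by 4 tested probes that disagreed. The brightest had log2 levels of 9.06, 9.13, 9.61 and 8.92 in hypothalamus against 4.95, 4.75, 5.52 and 5.49 in liver, at least 12.0-fold higher in hypothalamus, and a second one was at least 9.80-fold higher. Probe ILMN_3060333 ran the other way, with 5.35, 4.92, 5.17 and 5.07 in hypothalamus against 5.77, 6.27, 5.62 and 5.76 in liver (log2 difference −0.73, SE 0.16, adjusted p = 0.00187). It lay near background in both tissues, with detection p-values of up to 0.0414. Its deposited signals, before normalization, overlapped (147.9 to 185.6 in hypothalamus and 148.2 to 171.8 in liver). The fourth probe was not called (−0.54 on the log2 scale, adjusted p = 0.127). Vamp1 was the 1 gene of 11 with more than 1 tested probe whose probes were called in opposite directions, and 4 of the 11 had a called and an uncalled probe. Probe positions on the transcripts were not used here.

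**Figure D3:**
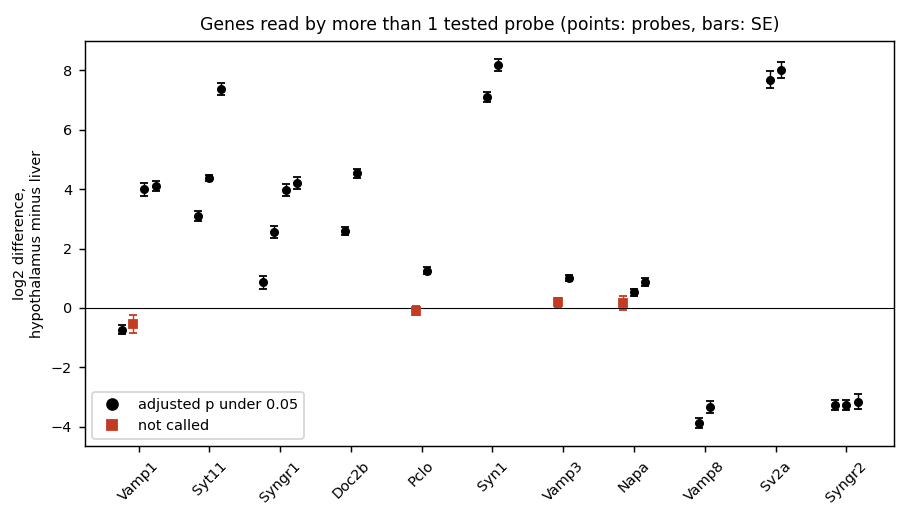
Log2 difference, hypothalamus minus liver, of each tested probe of the 11 genes read by more than 1 tested probe (error bars, SE; squares, not called). Vamp1 spans −0.73 to 4.10 and Syt11 3.11 to 7.38, while the 3 Syngr2 probes lie between −3.26 and −3.15.

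Of the Munc18 family, Stxbp2, the partner of non-neuronal syntaxins, was higher in liver. Its log2 levels were 8.72, 7.47, 8.09 and 8.33 in hypothalamus against 10.35, 10.30, 10.51 and 10.62 in liver, with no overlap between the tissues (4.90-fold, log2 difference −2.29, SE 0.23, adjusted p = 7.77e-06). Stxbp3, the partner of syntaxin 4, was detected on no array. The complexins were read throughout hypothalamus and never in liver. Cplx1 had the largest difference of the 36 genes, with log2 levels of 13.71, 13.47, 14.21 and 13.57 against 4.47, 4.66, 4.54 and 4.91 in liver (at least 285-fold, log2 difference 9.10, adjusted p = 2.33e-11). Cplx2 was scattered in hypothalamus, where replicate 1 stood highest, with 7.90, 6.47, 6.70 and 6.79 in hypothalamus against 4.57, 4.47, 4.57 and 4.35 in liver, at least 2.60-fold higher.

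The machinery that takes SNARE complexes apart was called higher in hypothalamus in 3 of 3 genes, where 43.1% of all tested genes were. Of these, Napb was detected on no liver array and had to differ, and Napa was not called beyond 2-fold. Nsf, the ATPase itself, had log2 levels of 13.40, 13.23, 13.45 and 13.40 against 8.54, 8.50, 8.73 and 8.78 in liver (26.6-fold, log2 difference 4.73, SE 0.11, adjusted p = 8.71e-11). Napb, the brain adaptor beta-SNAP, had 12.09, 11.23, 11.42 and 11.16 in hypothalamus against 5.30, 5.22, 5.08 and 5.03 in liver, where no array detected it (at least 59.4-fold). Hypothalamus replicate 1 stands above the other 3. Napa, the adaptor alpha-SNAP of all cells, differed least of the 3, with 8.51, 8.59, 8.83 and 8.67 against 7.95, 8.09, 8.29 and 8.15 in liver (1.44-fold, log2 difference 0.53, SE 0.12, adjusted p = 0.00195). Its log2 difference was 1.22 under median scaling, 0.93 in the values normalized by the authors and 1.64 with each tissue normalized apart. Of the other Napa probes 1 was called (0.88 on the log2 scale) and 1 was not (0.17, adjusted p = 0.524).

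Vesicle membrane proteins followed the same division. Synaptophysin (Syp) had log2 levels of 14.46, 14.49, 14.57 and 14.51 in hypothalamus against 6.71, 4.96, 5.94 and 5.77 in liver, where 3 of 4 arrays detected it at scattered levels (at least 357-fold, log2 difference 8.66, adjusted p = 1.72e-09). Synaptogyrin 3 (Syngr3) had 12.74, 12.79, 12.89 and 12.74 against 4.43, 4.53, 4.58 and 4.81 in liver (at least 148-fold). By its brightest probe, Syngr1 had 9.15, 9.16, 9.12 and 9.36 against 4.86, 4.97, 4.52 and 5.60 in liver (at least 12.2-fold). The 4 tested Syngr1 probes were all called higher in hypothalamus but ran from 0.86 to 4.21 on the log2 scale, the brightest being the largest. Syngr2, the cellugyrin of non-neuronal cells, was higher in liver, with 5.70, 5.996, 5.94 and 5.46 in hypothalamus against 9.38, 8.87, 9.05 and 8.84 in liver (9.58-fold, log2 difference −3.26, SE 0.16, adjusted p = 3.09e-08). The tissues did not overlap for any of the 3, with Syngr1 and Syngr3 high in hypothalamus and Syngr2 high in liver. The vesicle glycoprotein Sv2a had 13.12, 11.70, 12.07 and 12.07 in hypothalamus against 5.06, 4.37, 4.42 and 4.35 in liver (at least 101-fold), and Sv2b was at least 29.4-fold higher. Synpr, synaptoporin, was detected on no array.

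The synapsins, which tether vesicles in the reserve pool, were at background in liver. Syn1 had log2 levels of 13.19, 13.01, 13.20 and 13.23 in hypothalamus against 5.35, 4.47, 4.77 and 5.29 in liver (at least 190.4-fold), and Syn2 had 12.14, 11.17, 11.36 and 11.24 against 4.51, 4.87, 4.83 and 4.57 in liver (at least 59.4-fold). Rab3a, the main vesicle GTPase, was detected in both tissues, with 13.02, 13.26, 13.14 and 13.04 in hypothalamus against 6.94, 6.91, 6.98 and 7.06 in liver (70.7-fold, log2 difference 6.14, SE 0.10, adjusted p = 7.39e-12). The arrays of each tissue lay close together and the tissues far apart. Rab3b was at least 12.3-fold and the Rab3 effector Rph3a (rabphilin) at least 14.4-fold higher in hypothalamus, and Rab3c was detected on no array. Snap91, a clathrin assembly protein of presynaptic endocytosis, was at least 2.46-fold higher.

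Active zone scaffolds were poorly read. Bassoon (Bsn) was detected on no array. Rims1, the scaffold that binds Rab3, had a probe detected on 3 hypothalamus arrays and no liver array and another on 0 hypothalamus arrays and 1 liver array, and neither passed the filter. Piccolo (Pclo) had log2 levels of 6.36, 5.98, 6.56 and 6.11 in hypothalamus against 6.06, 6.56, 6.48 and 6.26 in liver for its brighter probe, which overlap (log2 difference −0.09, SE 0.16, adjusted p = 0.626). Its other probe was read throughout hypothalamus and never in liver and was called (6.09, 5.58, 5.61 and 5.87 in hypothalamus against 4.57, 4.59, 4.52 and 4.44 in liver, at least 1.15-fold, adjusted p = 9.46e-06). The brighter probe was called higher in hypothalamus under median scaling (log2 difference 0.71, adjusted p = 0.00145), in the values normalized by the authors (0.41, adjusted p = 5.03e-04) and with each tissue normalized apart (1.13, adjusted p = 4.65e-05).

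Neuronal genes were next set against their widely expressed paralogs directly. For each pair, the log2 level of the neuronal gene minus that of its paralog was taken on every array. The tissues were compared by an exact permutation test. A constant scaling of an array cancels in this value, but processing steps that depend on intensity do not. The size of this value within a tissue depends on the probes and has no meaning, and only its change between tissues is read. Of 18 pairs named, 12 had both genes tested, 9 of them pairs of vesicle genes from the 47. In 11 of the 12, the 4 hypothalamus values all exceeded the 4 liver values (two-sided exact permutation p = 0.0286 each, the smallest that the 70 splits allow, and 0.0312 after adjustment over the 12 pairs). In 6 of the 12 the neuronal gene was detected on no liver array and so passed the filter through the tissue where it is high. There the neuronal gene had to differ, though the pair value also depends on the paralog. The separation of these pairs supports nothing by itself. Of the other 6 pairs 5 were separated, among them Vamp1 with Vamp3, whose Vamp1 probe was detected on only 1 liver array. Of all tested genes 80.4% were called between the tissues, a share of single genes and not a rate for pairs, which was not computed. The count was 11 also with undetected neuronal genes raised to the lowest detectable level. The pairs were chosen with results of these arrays known, and several share a gene. The permutation p-values hold only if hypothalamus and liver arrays are not matched by animal, which the labels do not settle.

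Syngr3 with Syngr2 had the widest change, 11.46 on the log2 scale and 10.47 with Syngr3 at its bound in liver. By the brightest Syngr1 probe, Syngr1 with Syngr2 changed by 7.47 (6.87 at the bound). Over the processing alternatives these changes ran from 7.32 to 11.58 and from 4.05 to 7.78. Those of Stx1a with Stx7 and of Dnm1 with Dnm2, given below, ran from 0.84 to 3.09 and from 1.28 to 3.65. Vamp2 with Vamp8 changed by 8.49, both genes being detected on all arrays. Vamp2 with Vamp3 changed by 3.61 and Vamp1 with Vamp3 by 3.002 (2.59 at the bound), a value that rests on the brightest Vamp1 probe. With probes detected on all 8 arrays only, which leaves the Vamp1 probe near background that ran the other way, that change was −1.73.

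Stx1a changed by 5.87 against Stx4a and by 2.93 against Stx7 (5.07 and 2.13 at the bounds), and Napb by 5.79 against Napa (5.36). The exception was Vamp2 with Vamp4. Its values were −0.20, −0.03, 0.21 and −0.07 on hypothalamus arrays against −0.22, −0.14, −0.27 and −0.43 on liver arrays, which overlap, a change of 0.25 (exact permutation p = 0.0571). Paralogs from outside the 47 genes gave 3 more pairs: Syp with Sypl changed by 9.37 (9.19 at the bound), Rab3a with Rab3d, the GTPase of exocrine granules, by 7.80, and the dynamins Dnm1 with Dnm2 by 3.44 (2.42). The other 6 pairs were not compared, since at least 1 gene of each was not detected well enough to be tested or was not analysed here.

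**Figure D4:**
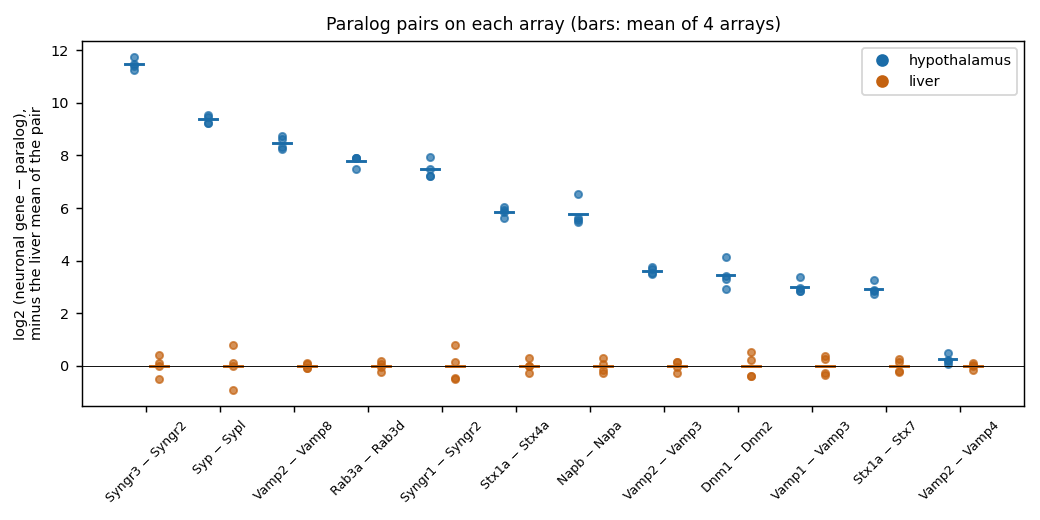
Log2 level of the neuronal gene minus that of its paralog on each array, less the mean of the pair over the liver arrays (points, arrays; bars, means of 4), for hypothalamus and liver. The hypothalamus means run from 11.46 for Syngr3 with Syngr2 to 0.25 for Vamp2 with Vamp4, the 1 pair whose tissues overlap.

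Spread within hypothalamus was uneven among these genes. Of the 36, 17 had an SD over the 4 hypothalamus arrays above the median of all probes detected there (0.16), and 6 lay above the 90th percentile (0.33). These were Cplx2 (SD 0.64), Sv2a (0.61), Syt4 (0.57), Stxbp2 (0.53), Syn2 (0.45) and Napb (0.42). Hypothalamus replicate 1 was the highest array for all 6, by 0.57 to 0.94 above the mean of the tissue on the log2 scale. The other Sv2a probe was also highest on replicate 1 and lowest on replicate 2, with log2 levels of 13.28, 11.84, 12.18 and 12.23 in hypothalamus. Over all 36 genes replicate 1 was the highest array for 10, and its median deviation was −0.02, so it was not the highest array for most of them. The log2 sum of the neuron markers was 16.19, 16.08, 16.20 and 16.15 on replicates 1 to 4, so replicate 1 was above replicates 2 and 4, and replicate 2 was lowest; the part of this in the spread was not tested. Without replicate 1 the log2 differences of the 6 genes were 2.05 for Cplx2, 7.38 for Sv2a, 7.04 for Syt4, −2.53 for Stxbp2, 6.54 for Syn2 and 6.13 for Napb, each still called. All of them but Stxbp2 were detected on no liver array and had to differ, so their calls support nothing by themselves. With the filter applied again without replicate 1, these genes could not be tested. In liver, 15 of the 36 genes were detected on all 4 arrays, and 1 of them (Syt11) lay above the 90th percentile of that tissue (0.40); Syngr2 (SD 0.25) and Stx7 (0.23) came next.

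**Figure D5:**
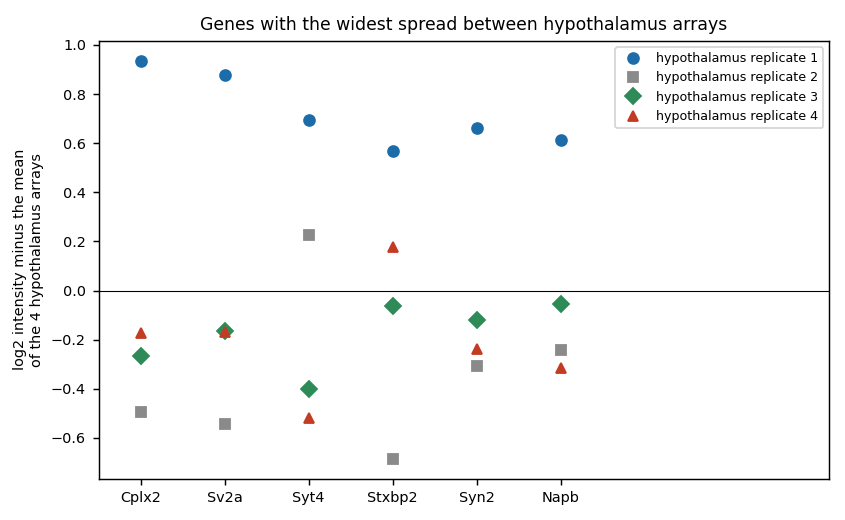
Log2 intensity minus the mean of the 4 hypothalamus arrays for the 6 genes with the widest spread there, by replicate. Replicate 1 lies 0.57 to 0.94 above the mean for each of the 6. The share over all probes with such spread was not computed.

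Other genes of the release and recycling machinery, outside the 47, were read from lists. Of 34 further presynaptic release genes 26 had a probe and 18 were tested: 17 had the higher level in hypothalamus, 1 in liver (median log2 difference 2.68, against 0.11 for all tested genes). Of these 18, 8 were detected on no liver array and had to differ, so the count and the median are no support. Among those detected on no liver array, Svop, a vesicle membrane relative of the Sv2 proteins, was at least 104-fold higher, and Cadps, a priming factor of dense core vesicles, at least 94.4-fold. The active zone gene Rims3, detected on 2 liver arrays, was at least 153-fold higher. Stxbp5l, a tomosyn, was 1.63-fold higher in liver. Of 24 genes of vesicle endocytosis 19 were tested, 15 with the higher level in hypothalamus, 4 in liver (median 1.40), where the shares of all tested genes were 43.1% and 37.3%. Of these 19, 7 were detected on no liver array and had to differ. The auxilin gene Dnajc6 was at least 264-fold, the endophilin gene Sh3gl2 at least 255-fold and Pacsin1 at least 200.1-fold higher in hypothalamus. Pacsin2, the widely expressed relative of Pacsin1, was 2.24-fold, Dnm2 1.53-fold and Epn1 1.51-fold higher in liver.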

How the data were processed

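The deposited intensity values are linear bead signals, not normalized between arrays (array medians 138.2 to 169.1); the depth of an array has no read count, and the number of arrays limits the precision. The deposited detection p-values take steps of 1 in 798. The tools named are lumi 2.10.0 and R 2.15.0, per the submitters' processing notes, with no further steps stated. The authors also deposited normalized intensity values, made by an unstated method (column medians 169.1 to 169.3 in hypothalamus and 143.9 to 144.6 in liver), which served as an alternative. With limma 3.58.1 in R 4.3.3, signals were normexp-corrected with an offset of 16 (neqc), quantile-normalized over all 8 arrays and put on log2; this forces 1 distribution on both tissues. Probes with detection p under 0.05 on at least 4 arrays were fitted with lmFit and eBayes (tissue only, two-sided, Benjamini-Hochberg over 13498 probes, threshold 0.05); treat tested beyond 2-fold. Names came from the platform annotation (23978 probes with 1 symbol, 0 with several, 1719 with none).

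A fold is "at least" where the dimmer tissue was not detected on all 4 arrays: the brighter tissue's mean is divided by a floor, taken on each dim array as the lowest detected signal or the probe's own signal, whichever is larger, and averaged. Such folds hold within this normalization. The code was tested on simulated data. Every gene of the set is accounted for; values per array are given for paralog pairs, the 5 largest differences in each direction among genes detected everywhere, genes not called or higher in liver, discordant probes and the 3 widest spreads per tissue; those of Cplx1, Syp, Syn1, Syn2, Syt1 and Syt5 were added after values were seen. From other lists up to 3 genes per direction are named. Members, roles, lists and pairs were chosen with earlier results of these data known. Alternatives were other background correction, normalization, filters, probe rules, a replicate block and leaving out each array.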

Additional observations from a re-analysis of the deposited data

Results flagged for a closer look

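In 75 groups of 4 arrays (51 of single genes detected on all arrays of the tissue and 24 of paralog pairs), 5 held an array far from the other 3 by Dixon's gap ratio, at the 95% level; chance alone gives about 1 in 20 groups. All 5 lay in hypothalamus. Stx1a was higher on replicate 3 (10.94) than on the others (10.66 to 10.70), with a gap of 0.862 of the range. Syn1 was lower on replicate 2 (13.01 against 13.19 to 13.23, gap 0.846), and Syngr1 higher on replicate 4 (9.36 against 9.12 to 9.16, gap 0.837). The pair of Napb and Napa was higher on replicate 1 (3.58 against 2.50 to 2.65, gap 0.86), and that of Rab3a and Rab3d lower there (5.39 against 5.77 to 5.80, gap 0.94). Each gap is small beside the difference between the tissues.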

How the results depend on the processing

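With each array left out in turn, 28 vesicle genes were called higher in hypothalamus and 5 in liver, 26 and 4 beyond 2-fold, 48 probes were called and 11 to 12 pairs were separated upward in hypothalamus. With the filter applied again after an array was left out, a choice made after seeing the data, these were 11 to 28 genes higher in hypothalamus, 5 in liver, 9 to 26 and 4 beyond 2-fold, 21 to 48 probes and 5 to 12 pairs; the low values come with each hypothalamus array left out, since probes detected in hypothalamus alone then cannot reach 4 arrays. With probes detected on all 8 arrays alone, 16 genes were tested, of which 8 were higher in hypothalamus (6 beyond 2-fold) and 6 in liver. Under this filter 17 probes of vesicle genes were called, where 80.7% of all 7992 such probes were. Of 5 pairs 3 were separated upward in hypothalamus and 1, Vamp1 with Vamp3, downward. Under the other alternatives 28 to 31 genes were higher in hypothalamus and 4 to 5 in liver. With the replicate block 28 and 5 genes were called. Arrays of the same number deviated together with correlations of 0.03 to 0.12, and each of the 8 arrays correlated best with its own number. Whether equal numbers mark the same animal was not tested, and the permutation test of the pairs took the arrays as unpaired. Directions turned for Pclo under median scaling (0.71), in the authors' normalized values (0.41), with each tissue normalized apart (1.13), with probes averaged (0.59) and without hypothalamus replicate 2 (0.0020, with the filter applied again too; −0.19 to 0.0020 over the arrays left out). They turned for Syt3 under cyclic loess (−0.11) and without liver replicate 2 (−0.022, with the filter applied again too; −0.022 to 0.43 over the arrays left out), and for Vamp1 (−0.73) and its pair with Vamp3 (−1.73) with probes detected on all arrays, where the brighter Vamp1 probes are no longer tested. Of all called probes 52.5% were higher in hypothalamus, but 65.6% under median scaling, 71.4% in the authors' values, 75.9% with each tissue normalized apart and 41.4% with probes detected on all arrays; the cause was not tested. Signal at the detection floor in liver limits the sizes of most neuronal differences.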

Other observations

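Of 28 further genes of membrane traffic, mostly SNAREs and SNARE partners of the endoplasmic reticulum, Golgi and endosomes with a few of the plasma membrane and the synaptophysin relative Sypl, 23 were tested. Of these 10 were higher in hypothalamus, 9 in liver and 4 were not called (median log2 difference −0.22), shares of 43.5% and 39.1% that are close to the 43.1% and 37.3% of all tested genes. The endosomal syntaxin Stx12 (3.76-fold), the SNARE Vti1b (3.25-fold) and Stx6, a syntaxin of the trans-Golgi network detected on 2 liver arrays (at least 2.01-fold), were higher in hypothalamus. In liver Vti1a (3.10-fold), the SNARE of endoplasmic reticulum to Golgi traffic Bet1 (3.02-fold) and the autophagosomal syntaxin Stx17 (2.57-fold) were higher, so the relatives Vti1a and Vti1b differed in opposite directions. Of 9 genes of the exocyst, the complex that tethers vesicles at the plasma membrane, 6 were tested, 3 higher in hypothalamus, 1 in liver and 2 not called (median 0.49), against the same 43.1% and 37.3% of all tested genes. They were Exoc4 (at least 2.71-fold), Exoc2 (3.22-fold) and Exoc8 (1.88-fold) in hypothalamus and Exoc6 (1.31-fold) in liver.

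Of 14 genes of regulated secretion outside neurons 9 were tested, 5 higher in hypothalamus, 3 in liver and 1 not called (median 2.17), or 55.6% and 33.3%, against 43.1% and 37.3% of all tested genes. Myrip, which links Rab27 to myosin and actin, was at least 11.1-fold, the Rab27 effector Sytl2 10.8-fold and Rab8b 9.92-fold higher in hypothalamus. The effector Sytl1 was at least 9.16-fold, Rab3d 3.15-fold and Rab8a 1.97-fold higher in liver. The slp genes Sytl1 and Sytl2 and the GTPases Rab8a and Rab8b thus ran in opposite directions.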
